A study of Mus musculus with 3 samples.

Results

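Expression of 9 genes used to recognise macrophages and monocytes was followed on 3 mouse expression arrays: *Adgre1*, *Adgre4*, *Adgre5*, *Cd68*, *Aif1*, *Cd14*, *Lyz2*, *Plac8* and *F13a1*. Every probe set annotated with 1 of these symbols alone was taken, which gave 10 probe sets of 45037, and the 9 genes were read among 18193 genes on the array. All 9 were found, and *Adgre4* was the one with a second probe set. The mTAMs were tumor-associated macrophages from the metastatic lung and the pTAMs those from the matched primary tumor of BALB/c mice, whose mammary fat pad had received 4T1 cells, a mammary carcinoma line of the same strain, at 5 to 6 weeks of age. Tissue was taken 5 weeks after inoculation. The BMDM were macrophages grown in culture from the bone marrow of healthy mice, for which the strain and age are not given in the sources used here. Tumor and lung tissue was digested with enzymes, and cells of all 3 groups were sorted as positive for CD11b and F4/80. Whether Ly6C-positive cells were removed for the arrays is not given. Each group had 1 array, and how many mice stood behind an array is not given, so the differences below carry no error between animals and could not be tested.

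Macrophages are phagocytes that arise from blood monocytes or from precursors seeded before birth, and monocytes that enter a tissue lose some surface proteins and gain others as they mature. The 9 genes mark different points along that route. *Adgre1*, *Adgre4* and *Adgre5* encode adhesion G protein-coupled receptors of the EGF-like group, with F4/80, the standard surface marker of mouse macrophages, as the product of *Adgre1*. *Cd68* and *Lyz2* encode proteins of the lysosome and its granules, *Cd14* a co-receptor for lipopolysaccharide, and *Aif1* the actin-bundling protein IBA1. *Plac8* is abundant in circulating monocytes, and *F13a1* encodes the A subunit of coagulation factor XIII, a transglutaminase that cross-links fibrin.

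Values were log2 signals after RMA, a method that corrects background, gives all arrays nearly the same distribution and summarizes each probe set. The array medians were 5.43 in mTAMs and 5.43 in pTAMs, against 5.36 in BMDM. A value at or below 5.3, the 95th percentile of 83 probe sets for odorant, pheromone and taste receptors, was treated as background, and a fold against such a value is a lower bound. Differences of at least 2-fold are counted. The only technical spread that could be had was the SD of the differences given by several probe sets for the same gene, which was 0.28 for mTAMs against pTAMs, 0.52 for mTAMs against BMDM and 0.43 for pTAMs against BMDM. That spread leaves out the mouse, the sort and the array. The macrophage markers *Csf1r* and *Itgam*, which encode the CSF1 receptor and CD11b, were above the floor on every array. *Csf1r* was 12.89 in mTAMs and 13.27 in pTAMs, against 13.35 in BMDM, and *Itgam* was 11.61 in mTAMs and 11.90 in pTAMs, against 10.46 in BMDM. Both contrasts with BMDM use the same BMDM array, so any error in that array enters both.

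Sequence around annotated start sites was taken from RefSeq for the mouse build GRCm38.p6, as 250 bases before to 50 bases after each start. Entries were used for 6 of the 9 genes. *Plac8* and *F13a1*, the genes with the largest differences below, are each shown with both listed start sites, and *Cd68*, whose values in both TAM groups lay below that in BMDM, is shown for contrast. Capitals mark GAGGAA or its reverse complement TTCCTC, the core of the site bound by PU.1, the transcription factor on which the myeloid lineage depends.
Plac8 at chr5:100572156-100572455, minus strand: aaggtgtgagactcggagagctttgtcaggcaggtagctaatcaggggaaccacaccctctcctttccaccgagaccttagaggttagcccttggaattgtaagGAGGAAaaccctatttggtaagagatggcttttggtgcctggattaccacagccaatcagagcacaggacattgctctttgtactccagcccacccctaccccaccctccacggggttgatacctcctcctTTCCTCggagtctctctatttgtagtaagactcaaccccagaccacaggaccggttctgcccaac
Plac8 at chr5:100563047-100563346, minus strand: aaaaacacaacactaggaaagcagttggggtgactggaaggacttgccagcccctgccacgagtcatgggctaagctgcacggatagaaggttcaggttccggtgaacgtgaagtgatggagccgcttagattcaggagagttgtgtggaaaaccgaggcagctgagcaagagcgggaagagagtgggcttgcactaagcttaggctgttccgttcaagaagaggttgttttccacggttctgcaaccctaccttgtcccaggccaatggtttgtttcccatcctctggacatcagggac
F13a1 at chr13:37049164-37049463, minus strand: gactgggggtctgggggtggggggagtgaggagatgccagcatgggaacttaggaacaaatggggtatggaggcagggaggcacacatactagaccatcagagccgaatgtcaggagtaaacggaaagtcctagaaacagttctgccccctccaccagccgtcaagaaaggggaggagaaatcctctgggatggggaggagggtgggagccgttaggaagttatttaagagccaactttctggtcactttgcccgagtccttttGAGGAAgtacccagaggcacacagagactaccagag
F13a1 at chr13:37050195-37050494, minus strand: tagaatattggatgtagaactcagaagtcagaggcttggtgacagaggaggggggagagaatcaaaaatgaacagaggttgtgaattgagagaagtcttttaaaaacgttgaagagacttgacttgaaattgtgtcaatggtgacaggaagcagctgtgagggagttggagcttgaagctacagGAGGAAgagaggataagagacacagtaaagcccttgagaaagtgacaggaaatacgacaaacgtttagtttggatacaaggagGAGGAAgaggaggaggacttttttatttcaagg
Cd68 at chr11:69666121-69666420, minus strand: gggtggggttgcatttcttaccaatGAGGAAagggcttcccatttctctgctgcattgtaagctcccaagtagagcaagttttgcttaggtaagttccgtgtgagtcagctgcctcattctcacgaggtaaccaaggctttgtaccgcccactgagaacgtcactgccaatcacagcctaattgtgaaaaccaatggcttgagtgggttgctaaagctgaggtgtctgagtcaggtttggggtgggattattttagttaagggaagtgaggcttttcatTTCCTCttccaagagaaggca

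The core occurred in 28.3% of 32851 RefSeq promoters of this length on either strand, so a match is common. The *Plac8* start at 100572156 had it 2 times and the other *Plac8* start had none. It was found once at the first *F13a1* start shown, 2 times at the second, 2 times in *Cd68*, 1 time each in *Adgre4* and *Aif1*, and not in *Lyz2*. The longer form GAGGAAGT, which contains the core and occurred in 3.2% of promoters, lay 42 bases after the *Adgre4* start on the opposite strand and 15 bases after the *F13a1* start first shown. *Cd68* alone among the windows searched had the AP-1 letters TGANTCA, at positions -149 and -24 from its start, and 7.81% of promoters had them. The C/EBP letters TTNNGNAA were in every window except that of *Aif1*, against 40.7% of promoters, and E-box letters CANNTG, found in 72.3%, were in 6 of the 8 windows. None of the windows had CACGTG, which belongs to the MITF and TFE factors, the TATA letters TATAAA or the NF-kappaB letters, which were in 7.15%, 13.6% and 1.63% of promoters. These are letter matches, and binding was not measured.

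In the EGF-like receptors the mouse macrophage marker and its relatives went in opposite directions. *Adgre1* was 10.06 in mTAMs and 10 in pTAMs, against 11.93 in BMDM. The TAM arrays were alike and BMDM stood above both. *Adgre1* was 3.66-fold lower in mTAMs than in BMDM (log2 difference -1.87) and 3.81-fold lower in pTAMs than in BMDM (-1.93), and mTAMs minus pTAMs was 0.06, within the spread between probe sets. More negative differences from BMDM were found in 341 genes for mTAMs and in 233 for pTAMs. Since F4/80 protein was itself used for the sort, these are transcript levels in cells already selected for the protein.

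*Adgre5* encodes CD97, a leukocyte receptor for the complement regulator CD55. It was 11.71 in mTAMs and 10.78 in pTAMs, against 8.56 in BMDM, so the 3 arrays were ordered with mTAMs highest and BMDM lowest. Relative to BMDM it was 8.88-fold higher in mTAMs (3.15) and 4.66-fold higher in pTAMs (2.22). The step between mTAMs and pTAMs was 0.93, or 1.91-fold, which is larger than the spread between probe sets and falls short of 2-fold. The transcript of its ligand, *Cd55*, was below the floor on all arrays, at 4.62 in mTAMs and 3.39 in pTAMs, against 3.39 in BMDM.

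*Adgre4* encodes a receptor of myeloid cells related to F4/80. Its brighter probe set gave 7.20 in mTAMs and 7.47 in pTAMs, against 4.52 in BMDM, and the dimmer gave 6.42 in mTAMs and 6.49 in pTAMs, against 4.31 in BMDM. On both, the TAM arrays lay above the floor and the BMDM array below it. The brighter probe set exceeded BMDM by at least 3.73-fold in mTAMs and by at least 4.50-fold in pTAMs. The dimmer did so by at least 2.17-fold in mTAMs and at least 2.28-fold in pTAMs. Between mTAMs and pTAMs the brighter differed by -0.27 and the dimmer by -0.07, both within the spread of 0.28.

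Of 29 adhesion G protein-coupled receptors listed, 25 were on the array, and 14 were above the floor in mTAMs or BMDM, with 5 higher and 1 lower in mTAMs and a median difference of 0.0. In pTAMs against BMDM, 4 of 14 were higher and 1 lower. These counts include *Adgre1*, *Adgre4* and *Adgre5*. Without them, 3 of 11 were higher and 0 lower in mTAMs, and 2 of 11 were higher and 0 lower in pTAMs. Across all genes, 11.5% were higher and 14.4% lower in mTAMs, and 8.78% and 7.5% in pTAMs. Apart from *Adgre1*, *Adgre4* and *Adgre5*, the largest differences from BMDM measured on both arrays in mTAMs were those of *Adgrg3*, a leukocyte receptor, and *Celsr3*, a cadherin-type receptor known from neurons. *Adgrg3* was 8.62 in mTAMs and 7.33 in pTAMs, against 5.43 in BMDM, which put mTAMs 9.13-fold and pTAMs 3.73-fold above BMDM. *Celsr3* was 8.20 in mTAMs and 6.60 in pTAMs, against 6.09 in BMDM. In both of these genes mTAMs were the highest array, as in *Adgre5*.

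Among the genes of the lysosome, *Cd68* lay just inside 2-fold and *Lyz2* was near the top of the scale everywhere. *Cd68*, which encodes a heavily glycosylated protein of lysosomes and endosomes, was 12.10 in mTAMs and 12.10 in pTAMs, against 13.07 in BMDM. The difference from BMDM was -0.97 on both TAM arrays, a factor of 1.96 and just short of the 2-fold threshold. Equal values on 2 arrays were common after this processing, at 12.6% of the probe sets above the floor in mTAMs or pTAMs, so the match between mTAMs and pTAMs cannot be read as an exact equality. In the related LAMP family, *Lamp1* was 12.26 in mTAMs and 12.44 in pTAMs, against 12.91 in BMDM, while *Lamp2* was 12.25 in mTAMs and 12.19 in pTAMs, against 11.60 in BMDM, and neither passed 2-fold in any comparison.

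*Lyz2* encodes lysozyme M, an enzyme that cleaves bacterial cell walls and whose locus is widely used to drive Cre in myeloid cells. It was 14.04 in mTAMs and 13.90 in pTAMs, against 14.29 in BMDM. The highest value of any probe set was 14.30 in mTAMs and 14.23 in pTAMs, against 14.38 in BMDM, so *Lyz2* lay close to the upper end of all arrays. The differences from BMDM were -0.25 in mTAMs and -0.39 in pTAMs, and both lay within the spread between probe sets. The direction in mTAMs depended on the scaling, since cyclic loess gave 0.03. Of the 3 probe sets of *Lyz1*, a close paralog, 2 were similarly bright, at 14.26 and 13.80 in mTAMs, 14.23 and 13.80 in pTAMs and 14.38 and 13.86 in BMDM. The remaining one was below the floor on all arrays, at 4.57 in mTAMs and 4.57 in pTAMs, against 4.82 in BMDM. The bright *Lyz1* probe sets carry a suffix for possible cross-hybridization, and the 2 genes cannot be told apart by them.

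*Cd14*, which presents lipopolysaccharide to the TLR4 and MD-2 complex, was the flattest of the 9 genes. It was 13.33 in mTAMs and 13.14 in pTAMs, against 13.18 in BMDM. The differences were 0.15 for mTAMs against BMDM, -0.04 for pTAMs against BMDM and 0.19 for mTAMs against pTAMs, each within the spread. The genes *Tlr4* and *Ly96*, which encode that complex, were within 2-fold as well. *Tlr4* was 10.55 in mTAMs and 10.40 in pTAMs, against 9.97 in BMDM, and *Ly96* was 8.25 in mTAMs and 8.0 in pTAMs, against 8.36 in BMDM.

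Over the 11 genes of lipopolysaccharide recognition on the array, all above the floor, 4 were higher and 1 lower in mTAMs than in BMDM, and 2 were higher and 1 lower in pTAMs. Among all genes, 11.5% were higher and 14.4% lower in mTAMs, and 8.78% and 7.5% in pTAMs. *Lbp*, which encodes the serum protein that carries lipopolysaccharide to CD14, was 9.44 in mTAMs and 7.42 in pTAMs, against 5.69 in BMDM, or 13.5-fold higher in mTAMs and 3.32-fold higher in pTAMs. *Cd180*, which encodes a TLR4-like receptor of B cells and myeloid cells, was the lower gene, at 7.71 in mTAMs and 7.80 in pTAMs, against 9.48 in BMDM. Its partner *Ly86* was 11.85 in mTAMs and 12.53 in pTAMs, against 10.76 in BMDM, so the transcripts of the 2 partners differed from BMDM in opposite directions.

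*Aif1* was 10.62 in mTAMs and 11.70 in pTAMs, against 8.84 in BMDM. All 3 arrays were separated by more than the spread, with pTAMs highest. Against BMDM it was 3.43-fold higher in mTAMs (1.78) and 7.26-fold higher in pTAMs (2.86), and it was 2.11-fold lower in mTAMs than in pTAMs (-1.08). Its paralog *Aif1l* was flat, at 6.38 in mTAMs and 6.38 in pTAMs, against 6.27 in BMDM. Of 9 genes of actin bundling, *Aif1* included, 3 were higher and 1 lower in mTAMs than in BMDM, beside 11.5% and 14.4% of all genes. The lower one was *Pls3*, which encodes plastin-3, at 8.13 in mTAMs and 9.09 in pTAMs, against 10.47 in BMDM. *Rac2*, which encodes a hematopoietic GTPase, was well above the floor on all arrays, at 12.20 in mTAMs and 11.01 in pTAMs, against 10.98 in BMDM. It was 2.33-fold higher in mTAMs than in BMDM and 2.28-fold higher than in pTAMs.

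The largest differences were in the genes tied to monocytes. *Plac8* was 12.76 in mTAMs and 12.76 in pTAMs, against 7.04 in BMDM, which is 52.7-fold higher on either TAM array (5.72), and the BMDM value was above the floor. Among the genes compared, 56 had a larger difference in mTAMs against BMDM and 38 in pTAMs against BMDM. *F13a1* was 11.01 in mTAMs and 12.30 in pTAMs, against 7.37 in BMDM, or 12.5-fold higher in mTAMs (3.64) and 30.5-fold higher in pTAMs (4.93). It differed between the TAM groups too, being 2.45-fold lower in mTAMs than in pTAMs (-1.29), where 123 of 11801 genes had a more negative difference. *Plac8* and *F13a1* were therefore both high in TAMs and differed in how mTAMs and pTAMs compared.

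**Figure D1:**
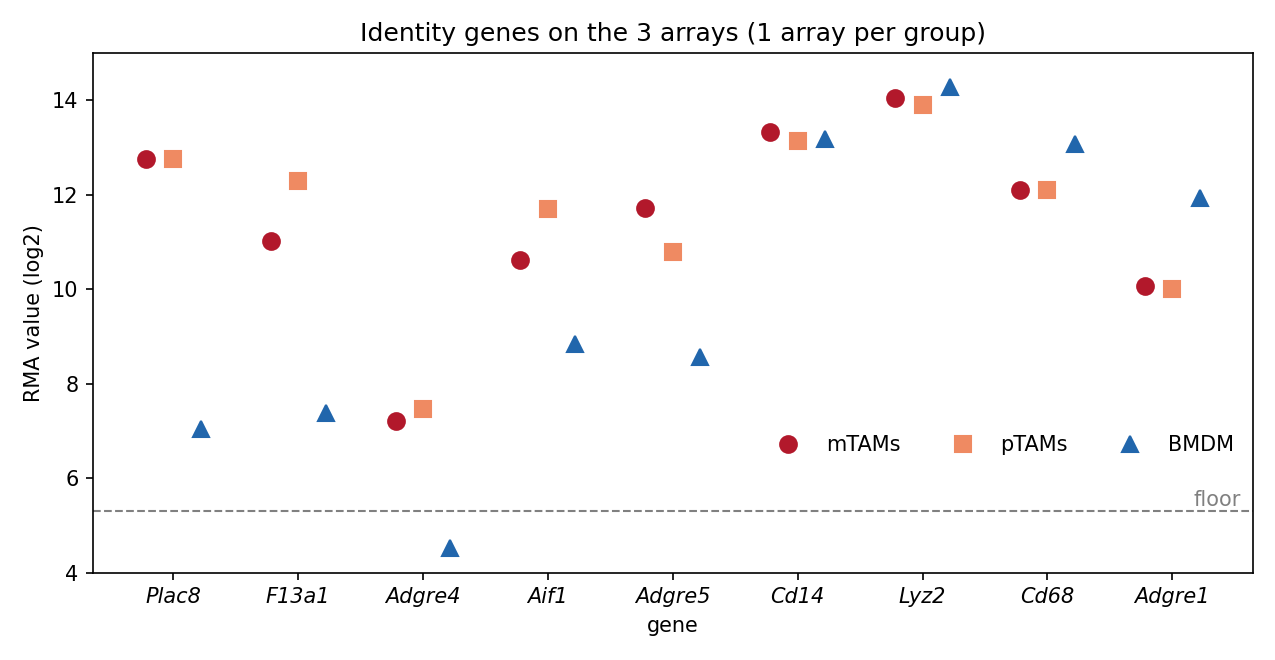
RMA value (log2, vertical axis) of each gene on the mTAM, pTAM and BMDM array, 1 point per array, and a dashed line at the floor, 5.3. Plac8, F13a1, Adgre4, Aif1 and Adgre5 lie higher on both TAM arrays than on the BMDM array, Cd14 and Lyz2 are nearly level, and Cd68 and Adgre1 are highest on the BMDM array.

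Counted together, mTAMs exceeded BMDM by 2-fold or more in 5 of the 9 genes, as they did in 11.5% of 11945 genes, and were lower by 2-fold or more in 1, as in 14.4% of genes. In pTAMs against BMDM the same counts were 5 higher, beside 8.78% of 11859 genes, and 1 lower, beside 7.5%. The 5 higher genes were *Plac8*, *F13a1*, *Adgre4*, *Aif1* and *Adgre5* each time, and the lower gene was *Adgre1*. *Cd68* became a second lower gene in both contrasts, at -1.04, when each array was centred on its median. Of all genes, 16.3% in mTAMs and 8.48% in pTAMs were then lower. With the values as deposited, the median difference of the 9 genes was 1.78 in mTAMs and 2.22 in pTAMs. The medians of all genes were -0.11 and -0.05. As the genes were chosen with earlier results of these arrays known, these shares are a description.

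**Figure D2:**
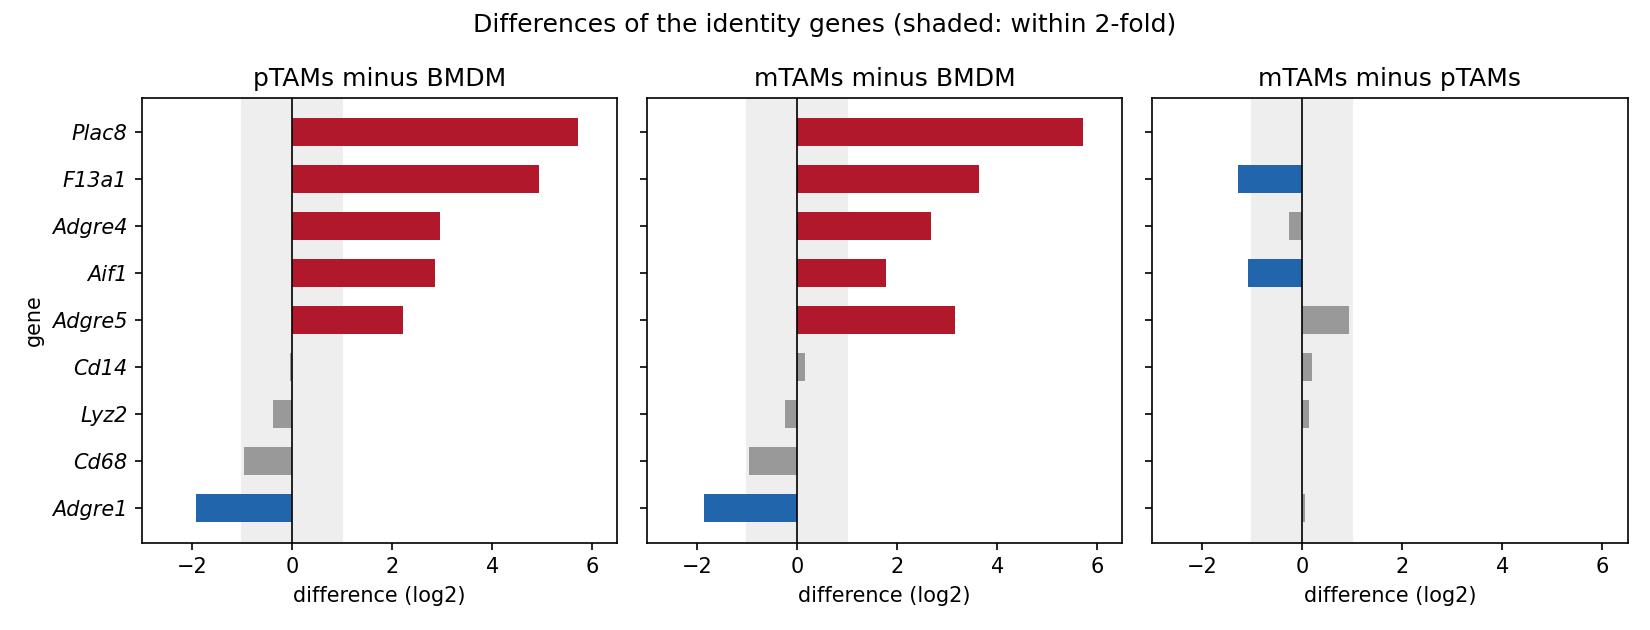
Difference (log2) of each gene for pTAMs minus BMDM, mTAMs minus BMDM and mTAMs minus pTAMs, with the range within 2-fold shaded and Adgre4 drawn at its measured value below the floor in BMDM. Differences from BMDM span -1.93 to 5.72 in pTAMs and -1.87 to 5.72 in mTAMs, while those between the TAM groups span -1.29 to 0.93.

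Between the TAM groups, 2 of the 9 genes were at least 2-fold lower in mTAMs than in pTAMs, *F13a1* and *Aif1*, beside 2.58% of all genes, and none was 2-fold higher, beside 5.36%. The median of the 9 was 0.0 and that of all genes -0.06. *Adgre5* came closest to being higher, and 697 genes had a larger difference. With cyclic loess scaling *Aif1* fell short of 2-fold, at -0.92, and *Adgre5* passed it, at 1.09. For *Adgre1*, *Adgre4*, *Cd68*, *Cd14*, *Lyz2* and *Plac8* the values in mTAMs and pTAMs differed by no more than the spread between probe sets, which does not show that the levels were the same.

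**Figure D3:**
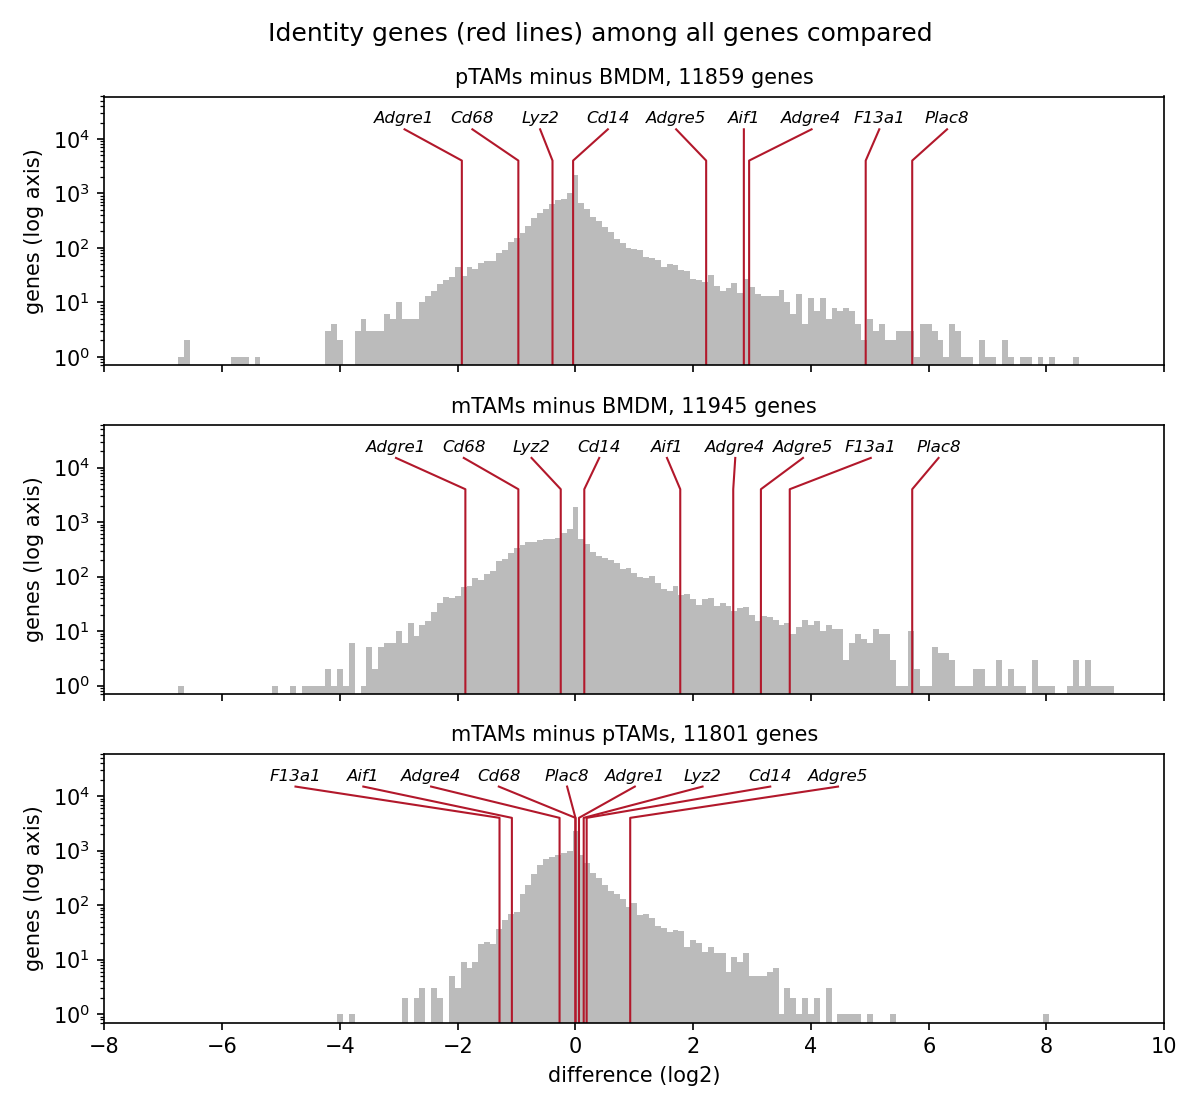
Distribution of the difference (log2) over all genes compared in each contrast (counts on a log axis), with the 9 genes as red lines. Plac8 and F13a1 lie in the upper tail of both contrasts with BMDM, and F13a1 and Aif1 in the lower tail of mTAMs minus pTAMs.

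Other genes of macrophage identity had median differences from BMDM close to 0. Of 27 above the floor, 6 were higher and 4 lower in mTAMs than in BMDM, beside 11.5% and 14.4% of all genes. Of 26 in pTAMs against BMDM, 8 were higher and 2 lower, beside 8.78% and 7.5%. The counts of lower genes were thus near the shares of all genes. The medians were 0.07 in mTAMs and 0.01 in pTAMs. *C1qa*, which encodes a chain of complement C1q, was 12.96 in mTAMs and 13.28 in pTAMs, against 8.87 in BMDM. *Folr2* and *Trem2*, which encode a folate receptor and a lipid-sensing receptor of macrophages, were lower in TAMs, as *Adgre1* was. *Folr2* was 8.73 in mTAMs and 9.33 in pTAMs, against 12.05 in BMDM, and *Trem2* was 9.45 in mTAMs and 9.95 in pTAMs, against 11.87 in BMDM. In mTAMs against pTAMs, 5 were lower, beside 2.58% of all genes, and 2 higher, beside 5.36%. The lower genes included *Cd163*, *Msr1* and *Fcgr1*, which encode 2 scavenger receptors and the high-affinity IgG receptor. *Cd163* was 7.58 in mTAMs and 9.69 in pTAMs, against 6.66 in BMDM, and *Fcgr1* was 10.58 in mTAMs and 12.03 in pTAMs, against 10.91 in BMDM.

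Classical monocytes are the inflammatory blood monocytes that express CCR2. Of their genes, without *Plac8* and *F13a1*, 9 of 17 were higher and 2 lower in mTAMs than in BMDM, with a median of 2.13, and 11 were higher and 2 lower in pTAMs, with a median of 1.75. The shares of all genes were 11.5% higher and 14.4% lower in mTAMs, and 8.78% and 7.5% in pTAMs. *Ccr2* was 11.34 in mTAMs and 12.27 in pTAMs, against 10.83 in BMDM, so it passed 2-fold in pTAMs (2.71-fold) and not in mTAMs (1.42-fold). *Fn1* and *Thbs1*, which encode the matrix proteins fibronectin and thrombospondin-1 and are also made by cells other than monocytes, had the largest differences in pTAMs. *Fn1* was 12.69 in mTAMs and 13.56 in pTAMs, against 5.67 in BMDM, and *Thbs1* was 10.57 in mTAMs and 12.01 in pTAMs, against 5.51 in BMDM. *Cd177* and *Hp*, which neutrophils express as well, exceeded BMDM by at least 81.0-fold and at least 237-fold in mTAMs and were 8.69-fold and 6.02-fold higher in mTAMs than in pTAMs. The lower genes were *S100a4* and *Ly6e*, with *S100a4* at 11.44 in mTAMs and 12.02 in pTAMs, against 13.73 in BMDM. The transcripts of *Ly6c1* and *Ly6c2* were not read, because their probe set names both.

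Of 13 genes of non-classical monocytes, which patrol the vessel wall, 7 were higher and 1 lower in mTAMs than in BMDM and 7 were higher and 3 lower in pTAMs. Beside these stand 11.5% higher and 14.4% lower of all genes in mTAMs, and 8.78% and 7.5% in pTAMs. *Nr4a1*, the nuclear receptor these cells depend on and also an early-response gene, was 12.31 in mTAMs and 11.31 in pTAMs, against 7.09 in BMDM. *Cd36*, which encodes a receptor for oxidized lipoprotein, was 8.43 in mTAMs and 8.33 in pTAMs, against 12.47 in BMDM. Genes of both monocyte classes were thus among the higher and the lower ones.

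**Figure D4:**
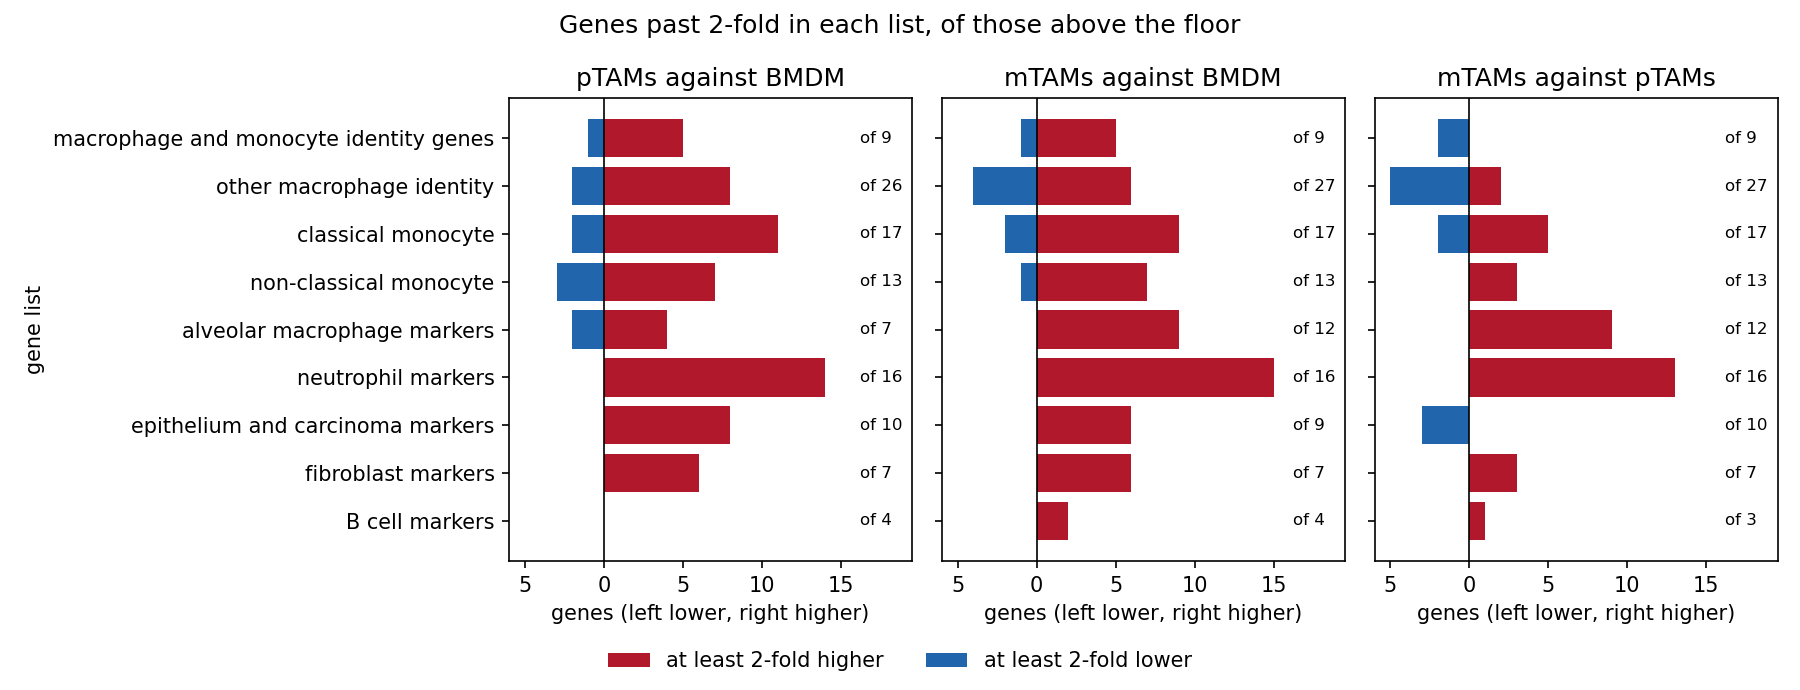
Number of genes at least 2-fold higher (to the right) and lower (to the left) in each list for pTAMs against BMDM, mTAMs against BMDM and mTAMs against pTAMs, with the number above the floor at the right edge. The neutrophil list has 14, 15 and 13 of 16 genes higher, and the 9 identity genes have 5, 5 and 0.

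Markers of other cells differed in the same comparisons. For these lists, the shares of all genes were 11.5% higher in mTAMs and 8.78% in pTAMs than in BMDM. In mTAMs against pTAMs, 5.36% were higher. Of 16 neutrophil markers, all above the floor in both TAM groups, 15 were higher in mTAMs and 14 in pTAMs than in BMDM, and 13 were higher in mTAMs than in pTAMs. Their summed linear signal was 110588 in mTAMs and 44435 in pTAMs, against 1898 in BMDM, in arbitrary units. *Csf3r*, which encodes the G-CSF receptor, was 12.52 in mTAMs and 10.02 in pTAMs, against 6.28 in BMDM, and *S100a8* was 14.20 in mTAMs and 13.47 in pTAMs, against 8.76 in BMDM. Neutrophils are known to express *Adgre5*, *Plac8* and *Cd14*. *Adgre5* followed the order of the neutrophil sum. *Plac8* was 12.76 on both TAM arrays, and *Cd14* differed between them by 0.19, within the spread between probe sets. *F13a1* and *Aif1* were lower in mTAMs than in pTAMs. The part of these cells in any of the 9 results was not tested.

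Of 12 alveolar macrophage markers, 9 were higher in mTAMs than in pTAMs, with 12, 7 and 4 above the floor in mTAMs, pTAMs and BMDM. They summed to 25647 in mTAMs and 11221 in pTAMs, against 10883 in BMDM. *Chil3* weighed most in the mTAM sum, at 13.50 in mTAMs and 11.20 in pTAMs, against 5.02 in BMDM. *Fabp5* and *Mrc1* were bright on all arrays, at 12.67 and 11.45 in mTAMs, 11.82 and 11.96 in pTAMs and 12.91 and 11.38 in BMDM. Epithelial and carcinoma markers summed to 2537 in mTAMs and 4700 in pTAMs, against 445 in BMDM, with 9, 10 and 4 of 12 above the floor in that order. *Krt18* was 8.92 in mTAMs and 9.77 in pTAMs, against 3.78 in BMDM, while *Epcam* was 6.53 in mTAMs and 6.53 in pTAMs, against 6.38 in BMDM. Fibroblast markers summed to 5206 in mTAMs and 1215 in pTAMs, against 298 in BMDM, with 7, 7 and 2 of 10 above the floor, and 6 were higher than in BMDM on each TAM array. *Dcn*, which encodes decorin, was 10.28 in mTAMs and 7.02 in pTAMs, against 5.32 in BMDM, and *Col1a1* was 5.79 in mTAMs and 5.47 in pTAMs, against 5.02 in BMDM. Of 9 mast cell and basophil markers, 5 were above the floor in mTAMs, 2 in pTAMs and 1 in BMDM, and those 5 were higher in mTAMs than in BMDM and than in pTAMs. All 9 summed to 6578 in mTAMs and 1226 in pTAMs, against 246 in BMDM. *Hdc*, the gene of histidine decarboxylase, was 12.40 in mTAMs and 9.99 in pTAMs, against 6.20 in BMDM. It made up most of that sum on both TAM arrays. *Mcpt4*, *Cma1*, *Tpsb2* and *Fcer1a* were below the floor on all arrays. Of 6 eosinophil markers, *Prg2* and *Siglecf* alone were above the floor, in mTAMs only. *Siglecf* is also among the 12 alveolar macrophage markers, so the lists are not separate there. The eosinophil sum was 872 in mTAMs and 85 in pTAMs, against 101 in BMDM. Of 11 dendritic cell markers, 1 was higher in mTAMs and 3 in pTAMs than in BMDM. Their sum was 1074 in mTAMs and 1422 in pTAMs, against 460 in BMDM. *Fscn1*, also in the actin bundling list, weighed most in the TAM sums, at 8.97 in mTAMs and 9.57 in pTAMs, against 4.07 in BMDM. *Flt3* and *Zbtb46* were nearly level, at 5.72 and 5.91 in mTAMs, 5.72 and 5.99 in pTAMs and 5.69 and 5.94 in BMDM. The fibroblast sum was highest in mTAMs and lowest in BMDM, as *Adgre5* was. The mast cell and basophil sum had that order too, but it rested mainly on *Hdc*. The alveolar macrophage sum was highest in mTAMs, but pTAMs and BMDM lay close together. The part of those cells in the *Adgre5* result was not tested. The order of the carcinoma sum, with pTAMs highest and BMDM lowest, is also that of *Aif1* and *F13a1*. The dendritic cell sum had that order too, but it rested mainly on *Fscn1*. A part of these cells in either result was not tested.

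Platelets carry factor XIII A as well, and their markers were read beside *F13a1*. Of 8 on the array, 6 were above the floor on each array, and the signals of all 8 summed to 2223 in mTAMs and 6277 in pTAMs, against 5189 in BMDM, with 1 gene higher and 1 lower in mTAMs and 1 higher and none lower in pTAMs than in BMDM. *Pf4* was 10.62 in mTAMs and 12.40 in pTAMs, against 12.19 in BMDM, and this 1 gene made up most of each sum. *Itga2b* was 7.31 and *Gp9* 6.34 on all 3 arrays, and *Gp6* was below the floor. *Ppbp*, which encodes a chemokine stored in platelets, was the higher gene, at 7.87 in mTAMs and 8.79 in pTAMs, against 6.20 in BMDM, which is the order of *F13a1*. It exceeded BMDM by 3.18-fold in mTAMs and 6.02-fold in pTAMs, and a part of platelets in the *F13a1* result was not tested.

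Of 7 B cell markers, 2 of the 4 above the floor were higher in mTAMs than in BMDM and none in pTAMs, with a sum of 1508 in mTAMs and 819 in pTAMs, against 657 in BMDM. The B cell markers *Cd79a* and *Ms4a1* were below the floor on all arrays, while *Cd22* was 8.74 in mTAMs and 7.08 in pTAMs, against 6.95 in BMDM, and *Ighm* was 9.81 in mTAMs and 8.99 in pTAMs, against 8.49 in BMDM. Of 11 T and NK cell markers, 5 were above the floor and 1 was higher in mTAMs than in BMDM, with a sum of 720 in mTAMs and 460 in pTAMs, against 435 in BMDM. That gene was *Cd3d*, a chain of the T cell receptor complex, at 8.31 in mTAMs and 6.03 in pTAMs, against 5.86 in BMDM, whereas *Cd3e* was 6.57 in mTAMs and 6.52 in pTAMs, against 6.49 in BMDM. A part of lymphocytes in the 9 results was not tested. In bulk samples such as these, fewer cells of a type and less RNA per cell cannot be told apart.

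The shapes of the 9 profiles over the 3 arrays were compared after each gene's mean was subtracted, as the Euclidean distance in log2 units, a description over 3 points. *Cd14* and *Lyz2* were the closest pair, at 0.31, followed by *Cd68* and *Lyz2* at 0.54. *Adgre4* lay 0.70 from *Aif1* and 0.86 from *Adgre5*, but 3.86 from *Adgre1*, its relative. *Plac8* and *F13a1* were 1.48 apart. The farthest pair was *Adgre1* and *Plac8*, at 6.22.

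Set against the 12025 genes above the floor on at least 1 array, the flat genes had many neighbours and the steep ones few. Within a distance of 0.1 lay 382 genes for *Cd14*, 204 for *Lyz2*, 69 for *Cd68*, 22 for *Adgre1*, 3 for *Aif1*, 2 for *Adgre4*, 1 for *Adgre5* and none for *Plac8* or *F13a1*. Nearest to *Adgre1* were *Cenph* and *Ercc6l*, both at 0.03, which encode proteins of the dividing cell's kinetochore and centromere. *Adgre4* was nearest to *Itgax*, which encodes the integrin CD11c, at 0.06, and to *Nckap1* at 0.09. *Itgax* was 9.22 in mTAMs and 9.56 in pTAMs, against 6.62 in BMDM. *Adgre5* was nearest to *Kdm7a* at 0.10 and *Cytip* at 0.11, and *Aif1* to *Rhoh* at 0.02 and *Sh2b2* at 0.04.

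*Plac8* was nearest to *Upp1* at 0.23, whose product breaks down uridine, and to the heat shock gene *Hspa1b* at 0.31. *Hspa1b* was 13.17 in mTAMs and 12.76 in pTAMs, against 7.12 in BMDM. *F13a1* was nearest to *Adamdec1* at 0.15 and *Spon1* at 0.26, both of which were below the floor in BMDM, at 4.26 and 5.02. Among 66 genes of the macrophage and monocyte lists, the nearest were *Ly6e* for *Adgre1* at 0.16, *Ms4a4c* for *Adgre4* at 0.50 and for *Aif1* at 0.32, *Clec4e* for *Adgre5* at 0.34 and *Sirpa* for *Cd68* at 0.04. *Tyrobp* was nearest to *Cd14* at 0.09, *Ifitm3* to *Lyz2* at 0.13, *Thbs1* to *Plac8* at 1.02 and *C1qa* to *F13a1* at 0.69. *Sirpa*, which encodes the receptor for CD47, was 11.10 in mTAMs and 11.05 in pTAMs, against 12.04 in BMDM.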

How the data were processed

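RNA of mTAMs, pTAMs and BMDM, all sorted for CD11b and F4/80 per the series' design text, was hybridised to Affymetrix mouse arrays, 1 array for each group. The authors deposited a table of log2 values made by RMA, of a version that the sources used here do not name, rounded to 2 decimals for 45037 probe sets. Quantile scaling within RMA hides a shift of the whole transcriptome. Raw scanner files were not used here.

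Probe sets were named from the platform annotation, in which 34945 had 1 symbol, 932 several and 9160 none. For each of 18193 genes, the probe set brightest on average over the 3 arrays was used. The floor of 5.3 was the 95th percentile of 83 sensory receptor probe sets. Genes above it on at least 1 of the arrays compared were counted at a log2 difference of 1 or more. With 1 array per group there was no test, and precision is limited by the number of arrays. The 9 genes and all gene lists were chosen with earlier results of these data known. All 9 genes are named, and from the lists up to 3 genes per direction with the largest difference measured on both arrays, the defining markers of other cells, the products paired with a gene described, and the 2 nearest profiles. *Cd55*, *Tlr4*, *Ly96*, *Aif1l*, *Lamp1*, *Lamp2* and *Sirpa* were chosen as partners, relatives or neighbours of a gene described. Alternatives were 3 other scalings, the mean of a gene's probe sets, unshared probe sets, no floor, a higher floor, values raised to the floor and a 3-fold threshold. A floor that also counts the Tas1r receptors was added after seeing the data. Promoter sequences came from RefSeq, GRCm38.p6. The calling of genes was tested on simulated data with known differences, placed on genes well above the floor. The simulated noise was smaller than the spread between probe sets against BMDM. That test does not cover genes near the floor or near the 2-fold threshold. The software was R 4.3.3 and limma 3.58.1 for the scalings, and Python 3.11.15, pandas 2.3.3, numpy 2.4.6 and matplotlib 3.10.9 for all else.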

Additional observations from a re-analysis of the deposited data

How the results depend on the processing

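No paired analysis was possible because each group had 1 array, and for the same reason no array could be left out. Of 60 counts of the 9 genes under 10 alternatives, 54 were equal or within 1.5 times, but many of these counts could not change. All 9 genes lay above each floor tried on both TAM arrays, so no change of the floor could alter which genes were compared. *Adgre4* alone had a second probe set, so the choice of probe sets could alter that gene only. Centring could not alter mTAMs against pTAMs, whose array medians were equal. With each array centred on its median, 2 genes were lower in mTAMs than in BMDM and 2 in pTAMs, *Adgre1* and *Cd68*. Of all genes, 16.3% were then lower in mTAMs and 8.48% in pTAMs. Quantile normalization also gave 2 lower in mTAMs than in BMDM, beside 13.6% of all genes. With cyclic loess normalization, 1 gene (*Adgre5*) was higher and 1 (*F13a1*) lower in mTAMs than in pTAMs, beside 6.08% and 2.02% of all genes. At a 3-fold threshold, 0 genes were lower in mTAMs than in pTAMs, beside 0.491% of all genes. *Cd68* stood near the threshold, at -1.04 to -0.71 in mTAMs and -1.04 to -0.94 in pTAMs against BMDM, as did *Aif1* (-1.1 to -0.92) and *Adgre5* (0.88 to 1.09) in mTAMs against pTAMs.

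When values under the floor were set to the floor, *Adgre4* was 1.9 in mTAMs and 2.17 in pTAMs against BMDM. Of 162 differences of single genes, 160 moved by less than the spread between probe sets. Many of these were fixed in advance. Averaging probe sets, using unshared ones or raising values to the floor could move no gene other than *Adgre4*. None of the called differences changed sign. *Lyz2* in mTAMs against BMDM, within 2-fold throughout, ranged over -0.32 to 0.03. Under cyclic loess *Cd14* (0.44) and *Lyz2* (0.42) in mTAMs against pTAMs exceeded the spread and stayed within 2-fold. The median of all genes in mTAMs against BMDM was -0.18 after median-centring and -0.11 as deposited. A floor of 5.56 with the Tas1r receptors, added after seeing the data, changed none of the counts of the 9 genes. It could not have done so, since all 9 lay above it on both TAM arrays. Low signal limits *Adgre4* in BMDM, where its level is a bound.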

Other observations

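The relatives of *F13a1* by function were read as a list of 16 coagulation and transglutaminase genes on the array, *F13a1* included. Of 14 above the floor, 10 were higher and 1 lower in mTAMs than in BMDM, beside 11.5% and 14.4% of all genes. In pTAMs 10 were higher and 1 lower, beside 8.78% and 7.5%. Without *F13a1*, 9 of 13 were higher and 1 lower in either contrast. *Tgm2*, which encodes tissue transglutaminase, was 12.35 in mTAMs and 13.33 in pTAMs, against 9.36 in BMDM. *F7*, which encodes coagulation factor VII, was 10.06 in mTAMs and 8.90 in pTAMs, against 6.49 in BMDM. The lower gene was *Plau*, which encodes urokinase, at 10.33 in mTAMs and 11.14 in pTAMs, against 13.03 in BMDM. *F13b*, which encodes the carrier subunit of factor XIII in plasma, was 2.82 on all arrays and below the floor. Between the TAM groups, 2 of the 14 were higher in mTAMs, beside 5.36% of all genes, and 3 were lower, beside 2.58%, with a median of -0.03. *F10* was 9.67 in mTAMs and 10.76 in pTAMs. *F3*, the gene of tissue factor, was 6.41 in mTAMs and 7.84 in pTAMs. Both were at least 2-fold lower in mTAMs, as *F13a1* was. *Serpinb2*, at 9.02 in mTAMs and 7.0 in pTAMs, was 4.06-fold higher in mTAMs, and *F7* was 2.23-fold higher. *F10*, *F3*, *F5*, *Serpinb2* and *Tgm1* were below the floor in BMDM, at 4.41, 3.23, 4.39, 4.31 and 4.42. Their folds against BMDM are therefore lower bounds.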
